A study of Homo sapiens with 18 samples.

Results

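Matrix metalloproteases and their inhibitors were followed through serial invasion of a nerve by MiaPaCa-2 cells, a human pancreatic cancer line. The members were taken by gene symbol from the table of counts: the metalloproteases MMP1, MMP2, MMP10, MMP14, MMP15, MMP17 and MMP24 and the inhibitors TIMP1, TIMP2 and TIMP3, which are 10 of the 57445 genes in the table. RNA sequencing covered 18 libraries in 6 groups of 3, all labelled wild type. The injected cells came from the sciatic nerve: leaders of passages 1, 2, 3 and 4, and laggers of passage 1. The parental line, which was not injected, was the baseline. Leaders were grown in culture after each harvest and injected again for the next passage, so each later passage had been through more rounds of nerve and culture, per the series' design text. The species of the host, and whether RNA was taken at harvest or after regrowth, are not stated in the labels. Nothing in the labels says that replicates came from separate animals or cultures, so p-values measure the spread between these libraries, which may be technical.

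Matrix metalloproteases are zinc-dependent enzymes that cut collagens, laminins and other matrix proteins, and most are made as inactive precursors. The secreted members studied here are MMP1, an interstitial collagenase, MMP10, a stromelysin that also cuts and activates procollagenases, and MMP2, a gelatinase. MMP14, MMP15 and MMP24 are membrane-type enzymes anchored by a transmembrane segment, and MMP17 is held by a glycosylphosphatidylinositol anchor. TIMPs bind the active site of these enzymes and block it; TIMP2 also helps MMP14 to activate proMMP2, and TIMP3 is retained in the matrix. The values below are RNA levels and say nothing of secretion, activation or enzyme activity.

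Gene totals ran from 15113462 to 39373248 counts per library. A level is given in CPM, a gene's count divided by the library size after edgeR's TMM scaling, on the usual common scale, and a mean is followed by its standard deviation with n = 3. A gene was called changed at a Benjamini-Hochberg adjusted p under 0.05 in edgeR's quasi-likelihood F test over 16187 genes, and log2 fold changes are given with their standard errors. Changes against the baseline were widespread: 39.3% of the tested genes were called in laggers and 45.7%, 29.9%, 24.6% and 27.7% in leaders of passages 1, 2, 3 and 4, each against the parental line. Replicate 2 of the passage 3 leaders stood apart, with 24.8% of its entries unaligned and 4 globin genes summing to 21051.5 CPM, against at most 1.58 CPM in every other library. Mitochondrial genes took 1.95% to 8.57% of gene counts in injected libraries, against 0.472% to 0.873% in the parental line, and the part of this difference in the results was not tested. The 5 comparisons with the parental line share its 3 libraries.

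TIMP1 had the highest level per length of the members in all 6 groups. Levels of different genes are compared only as CPM per kilobase of exon (union of exons in GENCODE 29). TIMP1 averaged 310 ± 27.7 CPM per kb in passage 1 leaders, 368 ± 159 in passage 1 laggers, 359 ± 42.8 in passage 2 leaders, 296 ± 62.9 in passage 3 leaders and 422 ± 179 in passage 4 leaders, against 164 ± 22.0 in the parental line. TIMP2 came next in the parental line, at 8.37 ± 2.07 CPM per kb, and its range overlapped that of MMP17, which followed at 6.77 ± 2.36. After it came MMP15 at 5.25 ± 2.54, MMP1 at 2.99 ± 0.857 and MMP24 at 2.68 ± 1.31 CPM per kb in the parental line, each overlapping its neighbour. In passage 2 leaders MMP24 stood second at 8.22 ± 0.533 CPM per kb, above TIMP2 at 4.95 ± 0.488 with no overlap. In passage 4 leaders the metalloprotease with the highest mean was MMP1 at 2.72 ± 1.09 CPM per kb, and it overlapped MMP24 at 2.25 ± 0.246, which overlapped MMP10 at 1.47 ± 0.839. MMP17 was last of the tested metalloproteases in that group, at 0.294 ± 0.0423 CPM per kb, with no overlap with MMP15 above it at 1.45 ± 0.437.

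**Figure D1:**
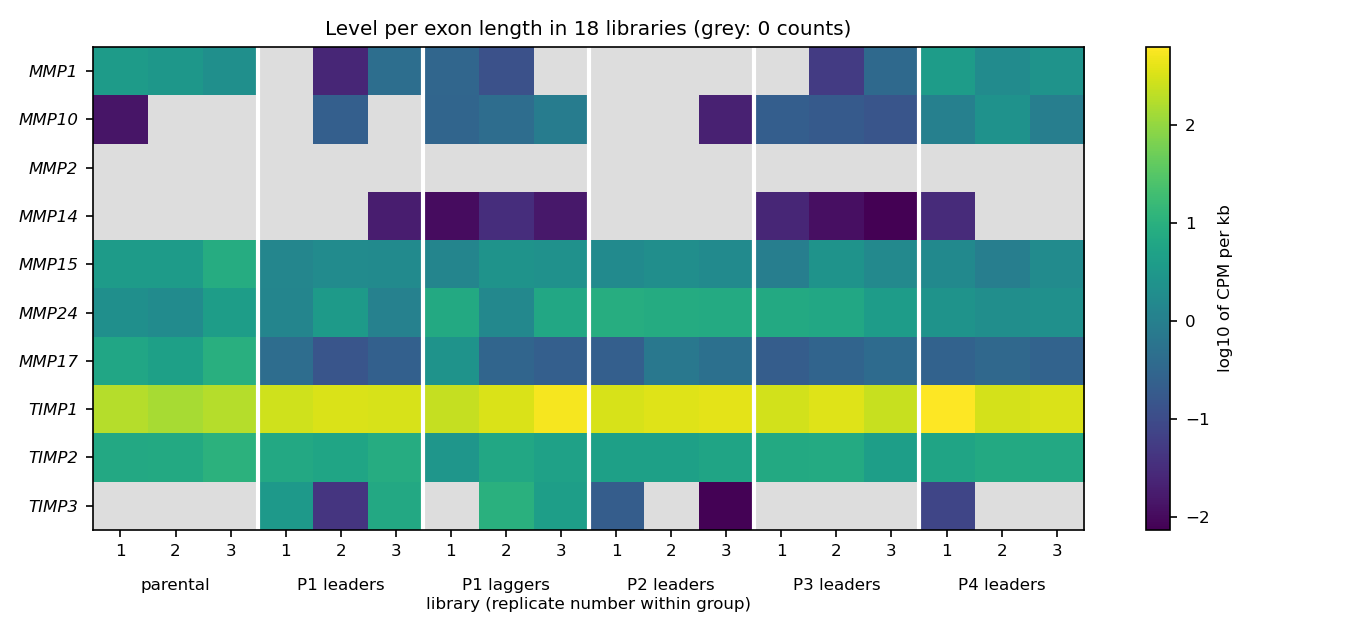
Heat map of the CPM per kilobase of exon of each member (rows) in each of the 18 libraries (columns, by group and replicate), on a log10 colour scale, with grey for 0 counts. TIMP1 is highest in every library, MMP2 is grey throughout, and MMP17 is at most 2.54 CPM per kb in injected libraries, against 4.74 to 9.37 in parental ones.

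Counts of 0 or close to 0 were found for MMP2 and MMP14 in both the injected and the parental cells. MMP2, which lies on chromosome 16 from 55389700 to 55506691 (GENCODE 29, GRCh38), had 0 of 446593377 gene counts in the 18 libraries, which allows a level of up to 0.00672 CPM. MMP14, the membrane-type enzyme that activates proMMP2, had 14 counts in all, spread over 8 libraries with at most 3 in any of them. Neither passed the filter on low counts, so 8 of the 10 members were tested. These bounds cover counting error only.

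MMP1 was low in the injected cells of passages 1 to 3 and overlapped the parental line at passage 4. The gene lies on the minus strand of chromosome 11 from 102789920 to 102798160 (GENCODE 29, GRCh38) and shares 150 bases of exon with the antisense pseudogene WTAPP1. It was measured at 0, 0.0495 and 0.872 CPM in passage 1 leaders, 0.614, 0.240 and 0 CPM in passage 1 laggers, and 0, 0 and 0 CPM in passage 2 leaders. It was at 0, 0.107 and 0.694 CPM in passage 3 leaders and 7.68, 3.45 and 4.92 CPM in passage 4 leaders, against 7.51, 6.02 and 4.14 CPM in the parental line. All 12 libraries of laggers and of passage 1, 2 and 3 leaders lay below every parental library, and the passage 4 leaders overlapped the parental line.

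MMP1 was called lower in 4 of the 5 comparisons with the parental line. In passage 1 leaders the group held 22 counts, against 650 in the parental line, and was 19.8-fold lower (95% counting interval 13.0 to 31.9; edgeR log2 fold change -4.24 ± 1.21, adjusted p = 0.0108). Without replicate 3 of the leaders it was 289-fold lower, and without replicate 1 it was 12.3-fold lower. Laggers held 18 counts and were 19.1-fold lower (12.0 to 32.5; log2 -4.27 ± 1.23, edgeR adjusted p = 0.0133), or 43.0-fold lower without their replicate 1. Passage 2 leaders held 0 counts and were at least 141-fold lower, with the group set at 3 counts (edgeR adjusted p = 0.00173); without their replicate 3 the bound was 86.1. Passage 3 leaders held 23 counts and were 17.8-fold lower (11.8 to 28.3; log2 -4.31 ± 1.21, edgeR adjusted p = 0.0190). Without replicate 3 of that group the fold was 112, and without replicate 1 or 2 the adjusted p was 0.0668 or 0.0632. In passage 4 leaders MMP1 held 404 counts and the log2 difference from the parental line was -0.14 ± 1.02 (edgeR adjusted p = 0.938), with a 95% interval of -2.31 to 2.03.

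**Figure D2:**
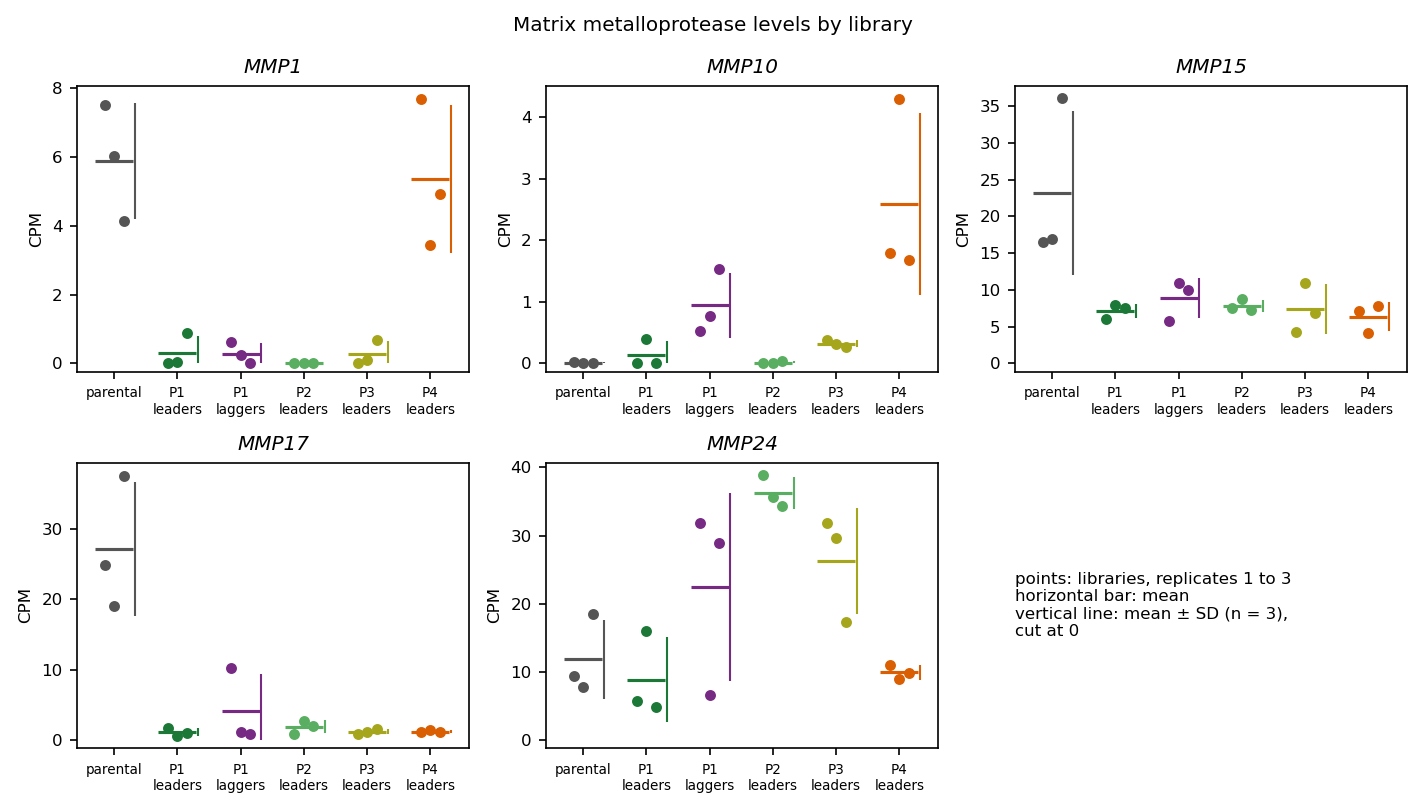
Level of each of the 5 tested metalloproteases in CPM by group, with a point per library and a bar at the mean (n = 3 per group). MMP1 is low in passages 1 to 3 and at 3.45 to 7.68 CPM in passage 4 leaders, MMP10 reaches 1.68 to 4.29 CPM in passage 4 leaders, and MMP15 and MMP17 are highest in the parental line.

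MMP10 was nearly absent from the parental line and reached its highest level in passage 4 leaders. The gene lies on the minus strand of chromosome 11 from 102770503 to 102780628 (GENCODE 29, GRCh38), 9.29 kb from MMP1. Its promoter is printed because MMP10 was the member with the largest rise over the parental line at passage 4 and belongs to a family of genes known as targets of AP-1, the FOS and JUN factors. The sequence is from RefSeq (GRCh38.p14), chr11:102780639-102780878 on the minus strand, and covers 250 to 11 bases before the start of the gene. Capitals mark a match to TGANTCA, the form of the AP-1 motif searched here, which allows any middle base, and a TATA box (TATAAA). The match reads TGAATCA, with A in the middle, and no narrower form of the motif was searched.
MMP10: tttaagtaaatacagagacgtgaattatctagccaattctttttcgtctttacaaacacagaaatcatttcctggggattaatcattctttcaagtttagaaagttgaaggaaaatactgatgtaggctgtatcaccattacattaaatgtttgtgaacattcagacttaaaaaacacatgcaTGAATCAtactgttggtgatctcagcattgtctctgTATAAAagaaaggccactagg
Both motifs were searched on both strands. TGANTCA is held by 6.57% and TATAAA by 10.7% of the 35116 promoters of the same 250-base window in that table. RefSeq's table had an entry for 6 of the 10 members.

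The MMP10 level was 0, 0.396 and 0 CPM in passage 1 leaders, 0.520, 0.766 and 1.54 CPM in passage 1 laggers and 0, 0 and 0.0369 CPM in passage 2 leaders. It was 0.387, 0.320 and 0.264 CPM in passage 3 leaders and 1.79, 4.29 and 1.68 CPM in passage 4 leaders, against 0.0249, 0 and 0 CPM in the parental line, a single count. Laggers, passage 3 leaders and passage 4 leaders each lay wholly above the parental line, and passage 1 and 2 leaders overlapped it. In passage 4 leaders 194 counts stood against 1 in the parental line, a ratio of 269 (95% counting interval 47.7 to 10686; edgeR log2 7.51 ± 1.32, adjusted p = 0.000649). In laggers 49 counts gave a ratio of 92.6 (15.9 to 3730; log2 6.04 ± 1.30, edgeR adjusted p = 0.00185). Passage 3 leaders, with 21 counts, had a ratio of 33.3 (5.36 to 1377; log2 4.52 ± 1.32, edgeR adjusted p = 0.0200).

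The MMP10 ratios against a single parental count move with the library that holds it. Without parental replicate 1 the bound was at least 55.8-fold in passage 4 leaders, 19.2-fold in laggers and 6.91-fold in passage 3 leaders. Without parental replicate 2 the ratio was 170 in passage 4 leaders, 58.5 in laggers and 21.0 in passage 3 leaders. The passage 3 call was lost without parental replicate 2 (edgeR adjusted p = 0.0690), parental replicate 3 (0.0695) or passage 3 leader replicate 1 (0.0526). Passage 1 leaders had 8 counts, all in replicate 2, and did not pass the test against the parental line (log2 3.16 ± 1.40, edgeR adjusted p = 0.0752). MMP10 passed without leader replicate 1 (0.0327) or 3 (0.0363), which each held 0 counts. Without leader replicate 2 the group held 0 counts, and the direction of the log2 difference turned.

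MMP1 and MMP10 are neighbours in a cluster of metalloprotease genes on chromosome 11, all on the minus strand, and the other genes there were read as counts. The 9 genes span 435.2 kb in GENCODE 29 in the order MMP7, MMP20, MMP27, MMP8, MMP10, MMP1, MMP3, MMP12 and MMP13, with MMP12 placed by its symbol. MMP3, a stromelysin 37.64 kb from MMP1, held 0 counts in passage 1 leaders, 17 in laggers, 0 in passage 2 leaders, 2 in passage 3 leaders and 108 in passage 4 leaders, against 227 in the parental line. MMP3 was at least 50.8-fold lower in passage 1 leaders than in the parental line (edgeR adjusted p = 0.00758) and at least 33.6-fold higher in passage 4 than in passage 1 leaders (0.0237). The second call rested on single libraries: without passage 4 replicate 2, which held 92 of the 108 counts, the bound was 7.24-fold (adjusted p = 0.0823), and without passage 1 replicate 1, 2 or 3 the adjusted p was 0.0649, 0.0628 or 0.0668. It was 53.9-fold without passage 4 replicate 3 and 20.8-fold or 22.2-fold without passage 1 replicate 1 or 3. Against the parental line the bound for passage 1 leaders was 31.5-fold without leader replicate 1 and 33.7-fold without leader replicate 3, and the call held. At passage 4 its libraries were spread over 0.581, 3.83 and 0.0991 CPM, against 2.19, 2.68 and 1.26 CPM in the parental line (log2 -0.45 ± 1.26, edgeR adjusted p = 0.827). MMP12, the macrophage elastase, held 0 counts in passage 1 leaders, 5 in laggers, 0 in passage 2 leaders, 3 in passage 3 leaders and 0 in passage 4 leaders, against 32 in the parental line, and was not tested. MMP13, another collagenase, held 17 counts in the parental line and 0 in every injected group. MMP7, matrilysin, went the other way: it held 37 counts in passage 1 leaders, 10 in laggers and 8 in passage 2 leaders, against 0 in the parental line, with 0 again in passage 3 and 4 leaders. MMP20 held at most 7 counts in a group, and MMP27 and MMP8 held 0 in all.

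**Figure D3:**
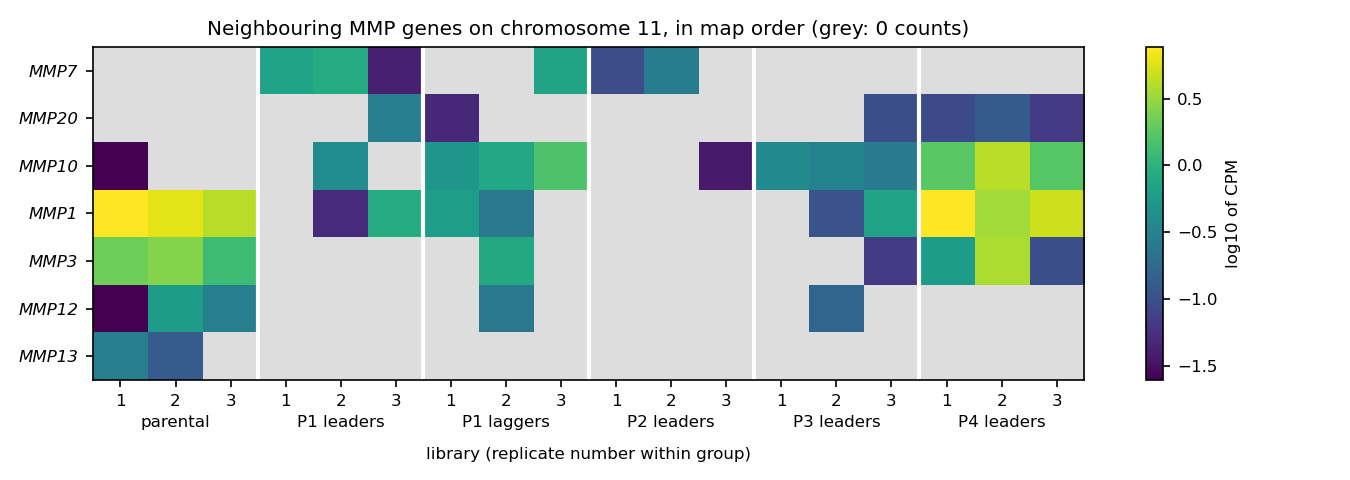
Heat map of the CPM of 7 genes of the chromosome 11 cluster (rows, in genome order) in the 18 libraries (columns, by group and replicate), on a log10 colour scale, with grey for 0 counts. MMP1 and MMP3 have counts in every parental and passage 4 library, with MMP3 uneven at passage 4, MMP10 is highest in passage 4 leaders, MMP12 is grey there, and MMP13 is seen in the parental line alone.

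MMP15 and MMP17, both membrane-bound, were lower in every injected group than in the parental line. MMP15 lies on chromosome 16 from 58025566 to 58046901 and MMP17 on chromosome 12 from 131828393 to 131851783 (GENCODE 29, GRCh38). MMP17 was at 1.73, 0.594 and 0.955 CPM in passage 1 leaders, 10.2, 1.20 and 0.910 CPM in passage 1 laggers, 0.907, 2.77 and 1.99 CPM in passage 2 leaders, 0.830, 1.17 and 1.55 CPM in passage 3 leaders and 1.07, 1.37 and 1.09 CPM in passage 4 leaders, against 24.9, 19.0 and 37.5 CPM in the parental line. All 15 injected libraries lay below the lowest parental one, and lagger replicate 1 stood above the other 14. The log2 fold change was -4.61 ± 0.78 in passage 1 leaders (edgeR adjusted p = 0.000209), -2.72 ± 0.70 in laggers (0.00643), -3.84 ± 0.74 in passage 2 leaders (0.00129), -4.50 ± 0.77 in passage 3 leaders (0.000626) and -4.52 ± 0.77 in passage 4 leaders (0.000527). As ratios of counts MMP17 was 22.6-fold lower in passage 1 leaders, 13.6-fold lower in passage 2 leaders, 20.7-fold lower in passage 3 leaders and 22.1-fold lower in passage 4 leaders. In laggers it was 5.77-fold lower, and 24.0-fold lower without their replicate 1. Fitted on laggers and parental libraries alone, the lagger call was lost (edgeR adjusted p = 0.0557).

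MMP15 fell by less than MMP17. It was at 6.07, 7.92 and 7.56 CPM in passage 1 leaders, 5.81, 10.9 and 10.0 CPM in passage 1 laggers, 7.49, 8.81 and 7.34 CPM in passage 2 leaders, 4.26, 11 and 6.84 CPM in passage 3 leaders and 7.10, 4.2 and 7.86 CPM in passage 4 leaders, against 16.5, 16.9 and 36.1 CPM in the parental line. No injected library reached the lowest parental one, and parental replicate 3 was the highest of all. The log2 fold change was -1.69 ± 0.38 in passage 1 leaders (edgeR adjusted p = 0.00208), -1.38 ± 0.38 in laggers (0.00932), -1.56 ± 0.38 in passage 2 leaders (0.00641), -1.65 ± 0.38 in passage 3 leaders (0.00538) and -1.86 ± 0.39 in passage 4 leaders (0.00230). The lagger call was lost without parental replicate 3 (edgeR adjusted p = 0.0673) and with only the compared groups in the fit (0.0507).

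MMP24, on chromosome 20 from 35226654 to 35277000 (GENCODE 29, GRCh38), had its highest mean in passage 2 leaders. It was at 5.67, 16.0 and 4.86 CPM in passage 1 leaders, 31.8, 6.66 and 28.9 CPM in passage 1 laggers, 38.9, 35.7 and 34.3 CPM in passage 2 leaders, 31.9, 29.6 and 17.3 CPM in passage 3 leaders and 11.1, 8.91 and 9.85 CPM in passage 4 leaders, against 9.33, 7.71 and 18.4 CPM in the parental line. The 3 passage 2 libraries lay above every parental one, and all other groups overlapped the parental line. Passage 2 leaders were the single group called against the parental line (log2 1.62 ± 0.52, edgeR adjusted p = 0.0269). That call was lost without parental replicate 1 (0.0879) or 2 (0.0880) and without passage 2 leader replicate 1 (0.0617), 2 (0.0541) or 3 (0.0569). Passage 3 leaders had a log2 difference of 1.15 ± 0.51 (edgeR adjusted p = 0.112) and laggers of 0.93 ± 0.51 (0.162), which was called without lagger replicate 2 (0.0298).

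An antisense gene, MMP24-AS1, overlaps the exons of MMP24 over 799 bases, and the library kit does not mark strand, so reads in the overlap cannot be told apart. A further entry on the opposite strand, AL121753.2, shares 162 bases of exon with MMP24. MMP24-AS1 averaged 15.6 CPM in passage 1 leaders, 23.4 in passage 1 laggers, 25.9 in passage 2 leaders, 35.4 in passage 3 leaders and 43.7 in passage 4 leaders, against 16.2 CPM in the parental line. It was thus highest at passage 4, where MMP24 averaged 9.94 ± 1.09 CPM.

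**Figure D4:**
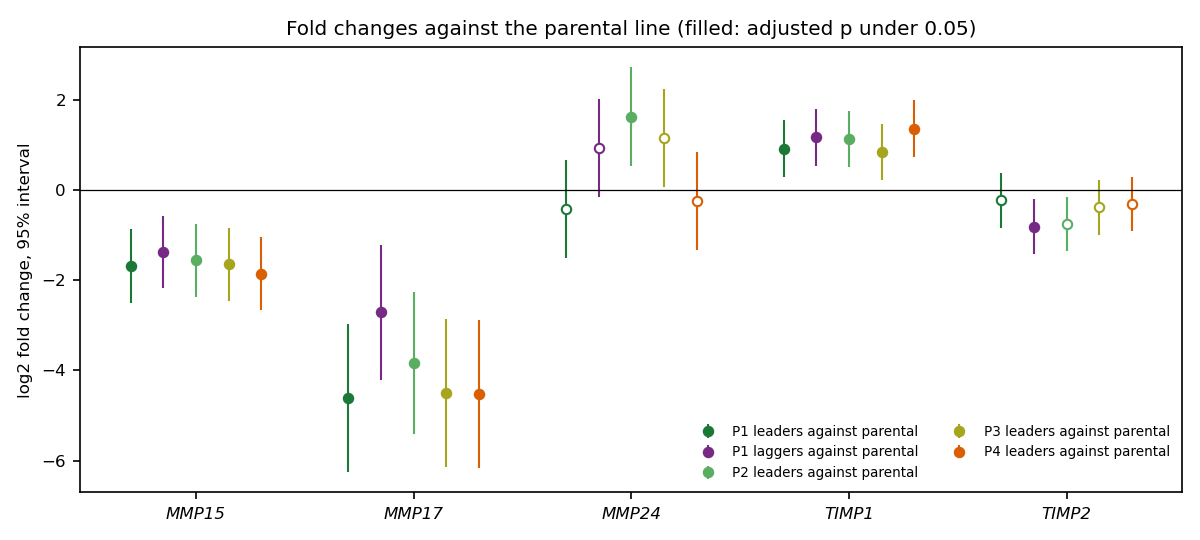
Log2 fold changes of MMP15, MMP17, MMP24, TIMP1 and TIMP2 in each injected group against the parental line. Bars are approximate 95% intervals built from the fold change and edgeR's F statistic. Filled points passed an edgeR adjusted p of 0.05. MMP17 lies between -4.61 and -2.72, MMP15 between -1.86 and -1.38 and TIMP1 between 0.85 and 1.36, whereas MMP24 is filled in passage 2 leaders alone and TIMP2 in laggers alone.

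TIMP1, a secreted inhibitor of most metalloproteases that also acts as a growth factor, rose in all 5 injected groups. It was at 429, 508 and 496 CPM in passage 1 leaders, 359, 507 and 837 CPM in passage 1 laggers, 486, 553 and 618 CPM in passage 2 leaders, 445, 558 and 365 CPM in passage 3 leaders and 967, 468 and 514 CPM in passage 4 leaders, against 277, 215 and 269 CPM in the parental line. Every injected library lay above the highest parental one. The log2 fold change was 0.91 ± 0.29 in passage 1 leaders (edgeR adjusted p = 0.0186), 1.16 ± 0.30 in laggers (0.00567), 1.12 ± 0.30 in passage 2 leaders (0.00958), 0.85 ± 0.29 in passage 3 leaders (0.0457) and 1.36 ± 0.30 in passage 4 leaders (0.00331). The passage 1 leader call was lost without parental replicate 2 (0.0739). The passage 3 call was lost without parental replicate 1 (0.0838), 2 (0.132) or 3 (0.0944) and without leader replicate 1 (0.0958) or 2 (0.106). TIMP1 lies on chromosome X from 47582313 to 47586789 (GENCODE 29, GRCh38), inside the region of SYN1 on the opposite strand with no shared exon.

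TIMP2 passed the test against the parental line in laggers alone. It was at 39.4, 33.5 and 47.3 CPM in passage 1 leaders, 16.3, 36.8 and 27.0 CPM in passage 1 laggers, 26.1, 26.5 and 31.0 CPM in passage 2 leaders, 41.9, 42.0 and 24.1 CPM in passage 3 leaders and 32.2, 42.0 and 40.2 CPM in passage 4 leaders, against 38.9, 42.0 and 60.5 CPM in the parental line. Laggers and passage 2 leaders lay wholly below the parental line, and the other groups overlapped it. Laggers were called lower (log2 -0.82 ± 0.29, edgeR adjusted p = 0.0322), but not without parental replicate 3 (0.136), lagger replicate 1 (0.123) or lagger replicate 3 (0.0721), and not with only the compared groups in the fit (0.137). Passage 2 leaders missed the threshold in edgeR (log2 -0.76 ± 0.29, adjusted p = 0.0558) and passed it in DESeq2 (0.0391) and with only the compared groups in edgeR (0.0415). TIMP2 lies on chromosome 17 from 78852977 to 78925387 and shares 198 bases of exon with CEP295NL on the same strand. It also shares 367 bases of exon with AC022966.1 on the opposite strand, and the library kit does not mark strand.

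TIMP3 was found in 5 of the 6 passage 1 libraries at very unequal levels and at 20 counts or fewer everywhere else. The gene lies on chromosome 22 from 32801701 to 32863043 (GENCODE 29, GRCh38). Its promoter is shown because TIMP3 had 0 counts in the parental line and up to 965 in a passage 1 library, and it can be set beside that of MMP10. It is from RefSeq (GRCh38.p14), chr22:32801455-32801694 on the plus strand, and covers 250 to 11 bases before the start. Capitals mark GC boxes (GGGCGG on either strand), which are held by 42.6% of the 35116 promoters.
TIMP3: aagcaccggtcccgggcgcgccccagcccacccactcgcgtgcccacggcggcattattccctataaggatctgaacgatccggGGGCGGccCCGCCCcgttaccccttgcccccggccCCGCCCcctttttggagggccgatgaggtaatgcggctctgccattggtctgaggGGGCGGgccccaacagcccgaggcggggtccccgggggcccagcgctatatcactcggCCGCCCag
The window holds 5 GC boxes and no match to TGANTCA or TATAAA.

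TIMP3 held 412, 4 and 757 counts in passage 1 leaders (15.2, 0.198 and 31.4 CPM) and 0, 965 and 282 counts in passage 1 laggers (0, 46.2 and 19.7 CPM). It held 20, 0 and 1 counts in passage 2 leaders, 0, 0 and 0 in passage 3 leaders and 8, 0 and 0 in passage 4 leaders, against 0, 0 and 0 in the parental line. Within each passage 1 group the libraries ran from near 0 to over 30 CPM, and laggers overlapped the parental line through replicate 1. Passage 1 leaders were at least 582-fold higher than the parental line as a group, with that line set at 3 counts (edgeR adjusted p = 0.00937), and at least 311-fold without leader replicate 3. Laggers were at least 785-fold higher (edgeR adjusted p = 0.00912), at least 282-fold without replicate 2 and at least 1258-fold without replicate 1. The bound also fell to 362 or 368 in passage 1 leaders and to 489 or 496 in laggers without parental replicate 1 or 2. With limma-voom neither call held, at an adjusted p of 0.183 for passage 1 leaders and 0.274 for laggers. Both were untested when only the compared groups were fitted, since TIMP3 then missed the filter on low counts.

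**Figure D5:**
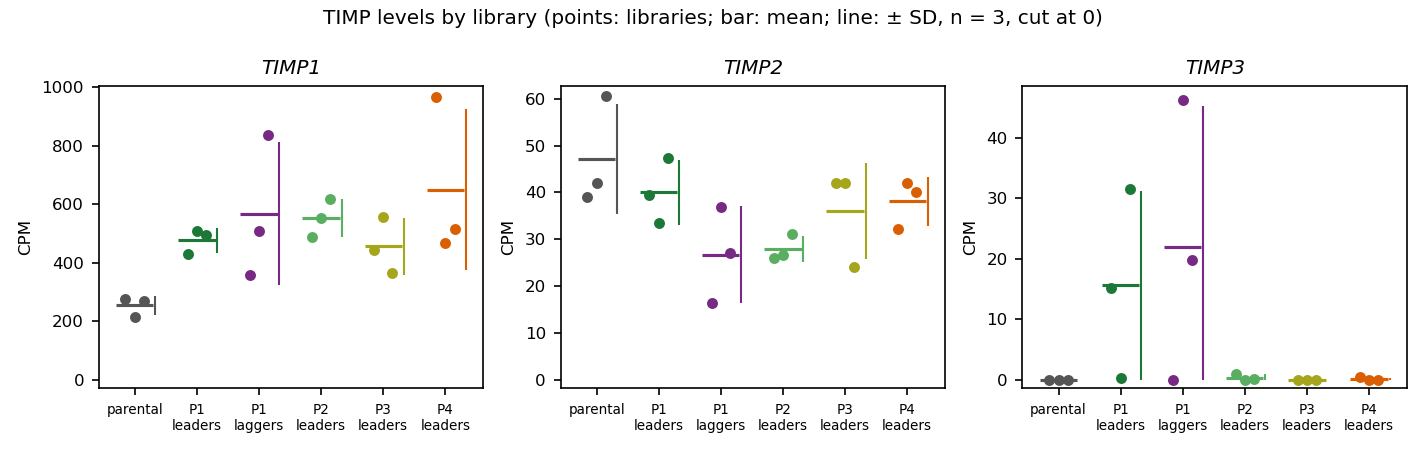
Level of TIMP1, TIMP2 and TIMP3 in CPM by group, with a point per library and a bar at the mean (n = 3 per group). TIMP1 is above the parental line in all 15 injected libraries, TIMP2 overlaps it in 3 of 5 groups, and TIMP3 spreads between 0 and 46.2 CPM in the passage 1 groups.

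SYN3, the gene in which TIMP3 lies on the opposite strand with no shared exon, stayed at or below 0.766 CPM in every library. Fibroblasts are a known source of TIMP3 and TIMP1, and a list of 12 fibroblast markers was read beside them. Its summed level was 1047 to 2387 CPM in passage 1 leaders, 1329 to 2273 in laggers, 801 to 1590 in passage 2 leaders, 618 to 1464 in passage 3 leaders and 332 to 571 in passage 4 leaders, against 219 to 428 CPM in the parental line. The collagen genes COL1A2 and COL3A1 made up most of the sum in passage 1 leaders, at means of 719 and 952 CPM. Of the 10 markers tested 5 were called higher and 2 lower in passage 1 leaders and 5 higher and 0 lower in laggers. Of all tested genes 23.2% were higher and 22.4% lower in passage 1 leaders, and 21.5% and 17.8% in laggers. COL1A1 and PDGFRA are named after their values were seen. COL1A1 averaged 17.9 ± 15.4 CPM in passage 1 leaders and 48.6 ± 60.4 in laggers, against 160 ± 70.45 in the parental line. PDGFRA had its highest mean in passage 2 leaders, at 63.7 ± 24.9 CPM. DCN, the proteoglycan decorin, averaged 4.09 ± 3.08 CPM in passage 1 leaders, 9.40 ± 3.85 in laggers and 0.101 ± 0.0916 in passage 4 leaders, against 0.187 ± 0.324 CPM in the parental line. LUM, lumican, averaged 3.97 ± 2.34 CPM in passage 1 leaders, 8.39 ± 7.75 in laggers and 0.0278 ± 0.0481 in passage 4 leaders, against 0.118 ± 0.102 CPM in the parental line. Both were called higher than in the parental line in passage 1 leaders and laggers and lower in passage 4 than in passage 1 leaders. THY1 and DPT stayed at or below 1.07 CPM, MMP2, which fibroblasts also make, was at 0, and 1 to 4 of the 12 markers were at 0 counts in each library. In the order of replicates 1, 2 and 3 the list summed to 1884, 1047 and 2387 CPM in passage 1 leaders, beside 412, 4 and 757 counts of TIMP3, and to 1329, 1362 and 2273 CPM in laggers, beside 0, 965 and 282 counts. A list of 12 Schwann cell markers went the other way, and summed to 242 to 291 CPM in the parental line. It was at 36.2 to 71.4 CPM in passage 1 leaders, 54.3 to 58.6 in laggers and 61.1 to 100 in passage 4 leaders. Passage 2 and 3 leaders were at 44.4 to 56.7 and 59.3 to 86.3 CPM. Endothelial markers summed to at most 14.5 CPM in any library. The part of any of these cells in the TIMP results was not tested, and in bulk libraries fewer cells of a type and less RNA per cell cannot be told apart.

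Passage 1 leaders and laggers were compared directly, which asks how leaders and laggers of the same nerve passage differ. None of the 8 tested members was called by edgeR, DESeq2 or limma-voom, with 0.0618% of all tested genes called by edgeR (0.0185% higher and 0.0432% lower in leaders); 3 members and 2338 genes had an unadjusted p under 0.05. MMP10 was lower in leaders in CPM, with 0, 0.396 and 0 against 0.520, 0.766 and 1.54 in laggers, and the groups did not overlap (log2 -2.88 ± 1.05, edgeR adjusted p = 0.262). As a ratio of counts it was 7.77-fold lower, 4.82-fold lower without leader replicate 1 and 5.15-fold lower without replicate 3; without replicate 2, which held all 8 counts, it was at least 14.9-fold lower. MMP17 had a log2 difference of -1.90 ± 0.71 (adjusted p = 0.273) that rested on lagger replicate 1: without it the difference was 0.13. MMP24 had a log2 difference of -1.34 ± 0.52 (edgeR adjusted p = 0.279) with overlapping groups, and was 2.61-fold lower as a ratio of counts, or 4.11-fold without leader replicate 2. TIMP2 differed by 0.59 ± 0.29 (0.356), and the 95% interval for TIMP1 ran from -0.87 to 0.37 and for MMP15 from -1.11 to 0.49. MMP1 had an interval of -2.67 to 2.75 and TIMP3 of -3.94 to 2.95, so differences of several fold in either direction were not excluded.

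Between passage 1 and passage 4 leaders the 2 secreted enzymes MMP1 and MMP10 rose and TIMP3 fell. These 3 of 8 tested members, 2 higher and 1 lower, stood beside 20.0% of all tested genes called, 10.8% higher and 9.17% lower. MMP1 was at 7.68, 3.45 and 4.92 CPM in passage 4 leaders, against 0, 0.0495 and 0.872 CPM in passage 1 leaders, with no overlap. The ratio of counts was 17.1 (95% counting interval 11.1 to 27.6; edgeR log2 4.10 ± 1.21, adjusted p = 0.0281), and it was 250 without passage 1 replicate 3 and 10.6 without passage 1 replicate 1. The MMP1 call was lost without passage 1 replicate 1 (0.0746) or 2 (0.0930) or passage 4 replicate 1 (0.0709) or 3 (0.0699). MMP10 had a ratio of 22.6 (11.2 to 53.1; log2 4.34 ± 1.07, edgeR adjusted p = 0.00998), which was 14.0, 43.2 and 15 without passage 1 replicate 1, 2 and 3. TIMP3 held 8 counts in passage 4 leaders, against 1173 in passage 1 leaders, and was 157-fold lower (79.6 to 365; log2 -7.10 ± 2.27, edgeR adjusted p = 0.0452).

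The TIMP3 fall was the least firm of these. The groups overlapped, since passage 1 replicate 2 had 4 counts, and the call was lost in DESeq2 (adjusted p = 0.104) and limma-voom (0.337). It was also lost in edgeR without passage 1 replicate 1 (0.0746) or 3 (0.110) and without passage 4 replicate 1 (0.0824), 2 (0.117) or 3 (0.160). The fold was 84.2 without passage 1 replicate 3, 297 without passage 4 replicate 1 and 95.2 without passage 4 replicate 3. Only 1 of the 3 calls was left without passage 1 replicate 1, passage 4 replicate 1 or passage 4 replicate 3. Calls over all genes in this comparison also fell in at least 1 fit that left out a library. The fibroblast markers summed to 332 to 571 CPM in passage 4 leaders and 1047 to 2387 CPM in passage 1 leaders. The sum and TIMP3 were both lower at passage 4. TIMP1 was not: it averaged 650 ± 276 CPM there, against 477 ± 42.6 CPM in passage 1 leaders (edgeR adjusted p = 0.303). In passage 2 and 3 leaders the sum was 801 to 1590 and 618 to 1464 CPM, beside 21 and 0 counts of TIMP3. Between passage 4 and passage 1 leaders 4 of the 10 fibroblast markers tested were called lower and 0 higher. Of all tested genes 9.17% were lower and 10.8% higher. FBLN1 and PDGFRA, named after their values were seen, had higher means at passage 4. They averaged 73.7 ± 15.3 and 13.9 ± 3.79 CPM there, against 46.8 ± 23.5 and 10.0 ± 7.51 CPM in passage 1 leaders. Macrophage and other immune markers, 9 genes in the table, summed to 10.9 to 35.3 CPM in passage 4 leaders, against 3.02 to 6.73 CPM in passage 1 leaders, with no overlap; 5 of the 9 were at 0 counts in each passage 4 library. Of the 4 tested, ITGAM, an integrin subunit of myeloid cells, was called higher (20.9 ± 12.8 CPM against 2.07 ± 0.727; log2 3.34 ± 0.57, edgeR adjusted p = 0.000996). PTPRC, the common leukocyte antigen, averaged 0.675 ± 0.585 CPM in passage 4 leaders, against 2.23 ± 1.25 CPM in passage 1 leaders, and TYROBP and LYZ held 0 counts in both groups. The part of either marker list in these changes was not tested.

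Over the 4 leader passages a linear trend was called for the same 3 members, 2 rising and 1 falling, beside 21.1% of all tested genes, 11.7% rising and 9.38% falling. MMP1 had a slope of 1.82 ± 0.44 log2 units per passage (edgeR adjusted p = 0.00973), although its level stayed under 1 CPM through passage 3 and rose at passage 4. MMP10 had a slope of 1.71 ± 0.35 (0.00332). TIMP3 had a slope of -2.73 ± 0.80 (0.0305), which was not called by limma-voom (0.327) or without passage 1 replicate 1 (0.0525) or 3 (0.0732), passage 2 replicate 1 (0.286), or passage 4 replicate 1 (0.0595), 2 (0.0808) or 3 (0.111). The slopes of MMP15, MMP17, MMP24, TIMP1 and TIMP2 were between -0.060 and 0.11 and were not called.

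Counted over the members, 7 of 8 tested were called in laggers against the parental line, 3 higher and 4 lower, where 39.3% of all genes were called, 21.5% higher and 17.8% lower. With only those groups in the fit 3 were called. In leaders 5 were called at each of passages 1, 2 and 3, with 2 higher and 3 lower each time, and 4 at passage 4, with 2 higher and 2 lower. Of all tested genes 23.2% were higher and 22.4% lower at passage 1, 15.1% and 14.8% at passage 2, 13.8% and 10.8% at passage 3, and 14.8% and 12.9% at passage 4. At passage 3 the count was 2 without leader replicate 1, and 3 without leader replicate 2, parental replicate 2 or parental replicate 3. Calls over all genes at passage 3 also fell in at least 1 fit that left out a library. The median log2 fold change of the tested members at passage 4 was -0.19, beside 0.035 over all tested genes.

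Of 17 other genes of both families 7 were tested. Against the parental line 1 of them was called higher and 3 lower in passage 1 leaders, 1 lower in laggers and none in passage 4 leaders. Of all tested genes 23.2% were higher and 22.4% lower in passage 1 leaders, and 21.5% and 17.8% in laggers. In passage 4 leaders 14.8% of all tested genes were higher and 12.9% lower. Between passage 4 and passage 1 leaders 3 were called higher and none lower, where 10.8% of all tested genes were higher and 9.17% lower, with a median log2 of 1.58 beside -0.023 over all of them. They were MMP3, MMP9 (log2 4.58 ± 1.42, edgeR adjusted p = 0.0317) and MMP19 (1.58 ± 0.49, 0.0335). MMP9, a gelatinase, was at 0.983, 2.33 and 4.92 CPM in passage 4 leaders, against 0.0736, 0 and 0.249 CPM in passage 1 leaders, and the summed immune markers, mostly ITGAM, were higher in the same comparison; their part was not tested. MMP11, stromelysin-3, was at 35.1, 39.0 and 49.6 CPM in passage 4 leaders, against 67.5, 63.4 and 92.2 CPM in the parental line.

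Genes that activate, bind or inhibit metalloproteases were read as a further list. Of 22 tested genes on that list, 5 were called higher and 4 lower in passage 4 than in passage 1 leaders, where 10.8% of all tested genes were higher and 9.17% lower, with a median log2 of 0.38 beside -0.023 over all genes. PLAUR, the receptor of urokinase, was at 409, 359 and 597 CPM in passage 4 leaders, against 17.1, 62.1 and 17.4 CPM in passage 1 leaders (log2 3.82 ± 0.67, edgeR adjusted p = 0.0012). PLAU, urokinase itself, which makes the plasmin that activates several proMMPs, was named after its values were seen: it was at 478, 763 and 1299 CPM in passage 4 leaders, against 88.7, 201 and 37.8 CPM in passage 1 leaders (log2 2.96 ± 0.67, 0.00633). PLAT, the other plasminogen activator, was at 375, 112 and 384 CPM in passage 1 leaders and 70.1, 67.5 and 136 CPM in passage 4 leaders, against 0.920, 0.357 and 0.222 CPM in the parental line. TFPI2, a matrix-bound serine protease inhibitor, fell between these passages (log2 -3.85 ± 0.64, edgeR adjusted p = 0.000799). In the parental comparisons of the same list, 2 were higher and 6 lower in laggers, 4 higher and 6 lower in passage 1 leaders, and 4 higher and 5 lower in passage 4 leaders. The shares of all tested genes were 21.5% higher and 17.8% lower in laggers and 23.2% and 22.4% in passage 1 leaders. They were 14.8% and 12.9% in passage 4 leaders.

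Transcription factors known to act on metalloprotease promoters were read as a list of 20, all tested. Between passage 4 and passage 1 leaders 5 were called higher and 2 lower, where 10.8% of all tested genes were higher and 9.17% lower, with a median log2 of 0.40 beside -0.023 over all genes. FOSL1, an AP-1 subunit, was at 86.2, 111 and 197 CPM in passage 4 leaders, against 7.43, 17.4 and 4.03 CPM in passage 1 leaders (log2 3.77 ± 0.61, edgeR adjusted p = 0.000627), and averaged 213 ± 48.7 CPM in the parental line. ETS1 rose in the same comparison (log2 3.12 ± 0.67, edgeR adjusted p = 0.00448). FOS, another AP-1 subunit, was at 1462, 1515 and 1735 CPM in passage 4 leaders, against 21.3, 19.2 and 35.6 CPM in the parental line (log2 5.95 ± 0.32, edgeR adjusted p = 9.85e-09). FOS did not separate passage 4 from passage 1 leaders (log2 0.22 ± 0.26, edgeR adjusted p = 0.591). FOSB, RUNX2 and FOSL2 are named after their values were seen. FOSB, an AP-1 subunit, averaged 116 ± 16.3 CPM in passage 4 leaders, against 321 ± 91.3 in passage 1 leaders. RUNX2 averaged 1.25 ± 1.15 and 4.78 ± 1.31 CPM in the same order. FOSL2 averaged 77.0 ± 14.3 CPM in passage 4 and 62.4 ± 8.01 in passage 1 leaders, against 239 ± 41.6 in the parental line.

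Proteases outside both families showed calls in both directions in passage 4 leaders against the parental line, where 14.8% of all tested genes were higher and 12.9% lower. Of 11 tested ADAM and ADAMTS genes 2 were higher and 3 lower in passage 4 leaders than in the parental line, among them ADAMTS4, an aggrecanase (log2 -5.02 ± 1.0, edgeR adjusted p = 0.00172), and ADAM19 (3.68 ± 0.84, 0.00421). ADAM19 was uneven at passage 4, at 20.0 ± 20.6 CPM, against 1.54 ± 0.639 CPM in the parental line. Of 13 tested genes for other matrix-degrading enzymes 2 were higher and 4 lower in that comparison, and cathepsin L, CTSL, had a log2 fold change of -2.29 ± 0.25 (edgeR adjusted p = 1.02e-05).

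The genes whose pattern over the 6 group means was nearest to that of a member were found by the root mean square difference of centred log2 CPM, among 13034 protein-coding genes. For MMP1 they were MMP3 (0.854), SCG2 (0.986) and KIAA1755 (1.04), and for MMP10 they were TNC (0.488), CTGF (0.644) and MATN2 (0.739). For MMP17 they were C10orf54 (0.216), THSD1 (0.263) and NLRP10 (0.285), and for MMP24 TMEM2 (0.291), SGK110 (0.340) and ETS2 (0.366). For TIMP3 they were CP (0.428), CALML3 (0.528) and IP6K3 (0.538). The values are a description over 6 groups of the same 18 libraries.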

How the data were processed

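Per the labels' protocols, RNA of MiaPaCa-2 cells was amplified with the SMART-Seq v4 kit, whose libraries carry no strand information, before paired-end sequencing. The authors deposited raw counts per gene. The submitters' processing notes list cutadapt 1.6, STAR 2.5.0a, HTSeq 0.5.3 and DESeq 1.22.1 without saying which step each served. Neither a build nor an annotation for the counts is given in the sources used here. The table's 5 entries that name no gene, 27.6% to 60.6% of all entries in a library, were left out.

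Counts were fitted with edgeR 4.0.16 in R 4.3.3: a quasi-likelihood fit took in the 18 libraries together, with a mean for every group, TMM scaling and the edgeR filter on low counts. It tested 16187 genes and left out 41258. Each of the 8 comparisons had its own Benjamini-Hochberg adjustment, with a threshold of 0.05. Ratios of counts set a group at 0 counts to 3 counts over the group; their 95% intervals cover counting error only, and amplified reads are not independent molecules. Gene totals of 15113462 to 39373248 counts set the precision of low genes. Replicates of a group differed by more than counting error (19.6 to 219 for chi-square over its degrees of freedom).

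Alternatives were DESeq2 1.42.0, limma-voom (limma 3.58.1), DESeq2-type size factors in edgeR, no filter, a replicate block, only the compared groups, and leaving out each replicate, which was also done for MMP3 after its values were seen. Deviations from the group means of same-numbered lagger and parental libraries had correlations of 0.106, 0.127 and 0.401. Lagger replicate 1 correlated more with parental replicate 2 (0.372) than with parental replicate 1. The labels state no pairing, and these values do not establish one. With the replicate block all 7 member calls between laggers and the parental line held. No other pair of compared groups had every same-numbered correlation over 0.1.

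The members and the gene lists were chosen with earlier results of these data known. All 10 members are named, and from each other list up to 4 genes with the smallest adjusted p in a comparison; genes outside this rule are marked. Likeness was computed for members whose group means span at least 2 on the log2 scale. Gene positions and lengths are from GENCODE 29 (all 10 members matched), and promoters from RefSeq.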

Additional observations from a re-analysis of the deposited data

Results flagged for a closer look

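For 3 members the effect in passage 4 leaders differed from the effect in passage 1 leaders, each taken against the same parental line and tested as passage 4 against passage 1. The difference was 4.10 log2 units for MMP1 (edgeR adjusted p = 0.0281), 4.34 for MMP10 (0.00998) and -7.10 for TIMP3 (0.0452). The TIMP3 value rests on 1173 counts spread over passage 1 leaders as 412, 4 and 757. Groups of 3 libraries were not tested for outlying samples.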

How the results depend on the processing

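Between passage 4 leaders and the parental line the same 4 member calls were made whichever of the 6 compared libraries was left out. Against the parental line, without 1 library, the number of called members was 5 to 8 in laggers and 4 to 6, 4 to 5 and 2 to 5 in leaders of passages 1, 2 and 3. It was 1 to 2 between passage 4 and passage 1 leaders. Over all genes the calls also fell without 1 library at passages 2 and 3 and between passage 4 and passage 1 leaders, as given below. Whether the member counts moved more than those was not tested. With only the compared groups 3 members were called in laggers. Directions turned without 1 library for MMP17 between passage 1 leaders and laggers (-2.40 to 0.13), MMP10 between passage 1 leaders and the parental line (-1.5 to 4.59) and MMP1 between passage 4 leaders and the parental line (-0.49 to 0.094). The replicate block ended the calls of TIMP1 at passage 3 (edgeR adjusted p = 0.0606) and of TIMP3 between passage 4 and passage 1 leaders (0.0809) and in the trend (0.0586). Replicates of different groups share only a number. Over all genes, passage 1 leaders against laggers gave 10 calls, 365 with DESeq2, 27 with limma-voom, 257 with no filter, 3 with the block, 0 with only the compared groups and 0 to 52 without 1 library. Laggers against the parental line gave 6363 calls, and 3355 with only those groups. Without 1 library the calls fell to 3167 of 4846 at passage 2, 2491 of 3976 at passage 3, 1512 of 3237 between passage 4 and passage 1 leaders, and 1740 of 3412 in the trend. The causes were not tested. Counts under about 20 in a group, as for MMP10 in passage 1 leaders, limit what depth can show.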
